A study of Homo sapiens with 4 samples.

Results

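The genes described are 32 genes listed as transcriptional targets of the tumour suppressor p53. The list leaves out CDKN1A, the gene of the cell cycle inhibitor p21. Regulation of the listed genes by p53 was not tested here. Members were listed by name, with earlier results of these data known, and every probe set that the platform annotation assigned to exactly 1 of them was taken. This gave 96 probe sets for 30 of the 32 genes, out of 44988 probe sets of 1 gene for 18132 genes on the array; BTG2 and FDXR were not analysed here. Of the 30 genes, 27 had at least 1 probe set above the filter on dim signals, with 69 probe sets in all, against 14340 genes and 31711 probe sets tested in the whole series.

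The cells were SCC-15, a line established from a human squamous carcinoma of the tongue, and formed 2 groups of 2 arrays. In the mimic group they had been given 30 nM of a microRNA mimic, an oligonucleotide designed to act as a mature microRNA. In the control group they had received miR-NC, the negative control. RNA was collected 36 h after transfection. The series title and design text name the mimic miR-762, whereas the labels of both mimic samples name miR-585-5p, so the group is called "mimic". The labels do not state that arrays of a group came from separate cultures, so that p-values cover only the spread among these 4 arrays, possibly technical. The labels do not give the p53 status of the line.

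The protein p53 is a transcription factor that is kept low by MDM2 and MDM4 and is stabilised when DNA is damaged or growth signals are disturbed. It then binds response elements near its target genes, which arrest the cell cycle, repair DNA, lower oxidative stress, restrain growth signalling or trigger cell death, and it also induces its own inhibitors. Many of these targets answer to other transcription factors as well, and in squamous epithelium p53 shares binding sites with its relatives of the same family.

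The mature sequences of both microRNAs named for the mimic are shown because no value here settles which of them was used. They are written 5′ to 3′ as given by RefSeq for GRCh38.p14, with the seed (bases 2 to 8), the part that pairs with target transcripts, in capitals.
hsa-miR-585-5p: cUAGCACAcagauacgcccaga
hsa-miR-762: gGGGCUGGggccggggccgagc
The first lies at chr5:169263649-169263670 on the minus strand and the second at chr16:30893951-30893972 on the plus strand, and their seeds differ.

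The sequence that p53 itself recognises was looked for in RefSeq promoter windows of 300 bases (250 before to 50 after an annotated start, GRCh38.p14), which were available for 25 of the 30 members; GADD45A, TP53INP1, RRM2B, PHLDA3 and TNFRSF10C had no window. The motif was the p53 consensus decamer of 10 letters, which reads the same pattern on both strands. It was present in 5 of 35 member windows (14.3%), against 6.63% of all 35116 windows. Matches are shown 5′ to 3′ on the gene's strand with the decamer in capitals.
AEN: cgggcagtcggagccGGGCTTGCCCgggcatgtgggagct
DDB2: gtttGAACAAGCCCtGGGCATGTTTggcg
PLK2: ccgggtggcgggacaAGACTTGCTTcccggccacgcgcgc
RPS27L: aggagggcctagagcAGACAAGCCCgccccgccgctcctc
SESN1: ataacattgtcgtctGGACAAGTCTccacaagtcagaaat
These stretches lie at chr15:88621291-88621330 (plus strand) for AEN, chr11:47214975-47215003 (plus strand) for DDB2, chr5:58460194-58460233 (minus strand) for PLK2, chr15:63157512-63157551 (minus strand) for RPS27L and chr6:109009013-109009052 (minus strand) for SESN1. The DDB2 stretch holds a pair of decamers with 1 base between them, the full form of a p53 site, beginning 6 bases into the transcript of 1 of the 2 DDB2 starts. A pair of decamers 0 to 13 bases apart was found in 10 of the 35116 windows (0.0285%), and DDB2 was the only member among them. A match describes the letters of the window and is not evidence of binding.

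Levels are log2 of the intensities deposited by the authors, which had been made with RMA, and differences are mimic minus control on that scale. A gene was represented by its brightest probe set over all 4 arrays, and "higher" and "lower" as calls mean a Benjamini-Hochberg adjusted p under 0.05 over all genes tested in limma. An exact permutation test of 2 against 2 arrays for 1 gene could not give a two-sided p below 0.333, so all p-values are from limma. Replicate arrays correlated at r = 0.998 (mimic) and 0.997 (control) over all probe sets; probe sets are no replicates. Of 12 squamous epithelial markers, 8 were tested, and their mean levels were 9.76 and 9.79 in the mimic arrays, against 9.43 and 9.32 in the control arrays. Those of fibroblast (3 of 6 markers tested), leukocyte (3 of 6) and endothelial (4 of 5) markers lay between 3.86 and 4.55 in the mimic arrays, against 4.10 to 4.46 in the control arrays.

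The p53 targets did not move as a block. In RNA from whole cultures, a change in the share of cells in some state and a change in RNA per cell cannot be told apart. Of the 27 tested, 5 rose (TP53INP1, MDM4, SESN1, DDB2 and CCNG1), 3 fell (TP53I3, PPM1D and CCNG2) and 19 did not pass. Among all genes 17.7% were called higher and 12.3% lower. The share of the 27 members called either way, 29.6%, was close to the 30.1% of all genes. The median difference was 0.09 for the p53 targets and -0.02 for all genes, and the median absolute difference was 0.16 and 0.18. The mimic and control arrays did not overlap for 23 of 27 members, 12 with mimic higher and 11 with mimic lower, against 70.4% of all genes.

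Only TP53INP1 of the 27 tested differed by 2-fold or more, called or not, as did 333 of all 14340 genes. Of all genes, 2.06% were both called higher and of that size, and 0.195% both called lower and of that size. The split between directions moved with scaling, in the members and over all genes. After a further quantile normalization, 4 members and 2058 of all genes were called higher and 7 members and 2619 of all genes lower, against 5 and 2544 higher and 3 and 1766 lower as deposited. Without either mimic array no gene of the series passed in limma, members included. An unadjusted p under 0.05 was reached there by 4198 and 4269 of all genes and by 8 members in each case. The differences without mimic replicate 1 and without mimic replicate 2 were then 1.16 and 1.11 for TP53INP1, 0.59 and 0.62 for MDM4, and 0.59 and 0.56 for SESN1. Without control replicate 1 only TP53INP1 passed, and without control replicate 2 TP53INP1, MDM4 and SESN1 did.

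**Figure D1:**
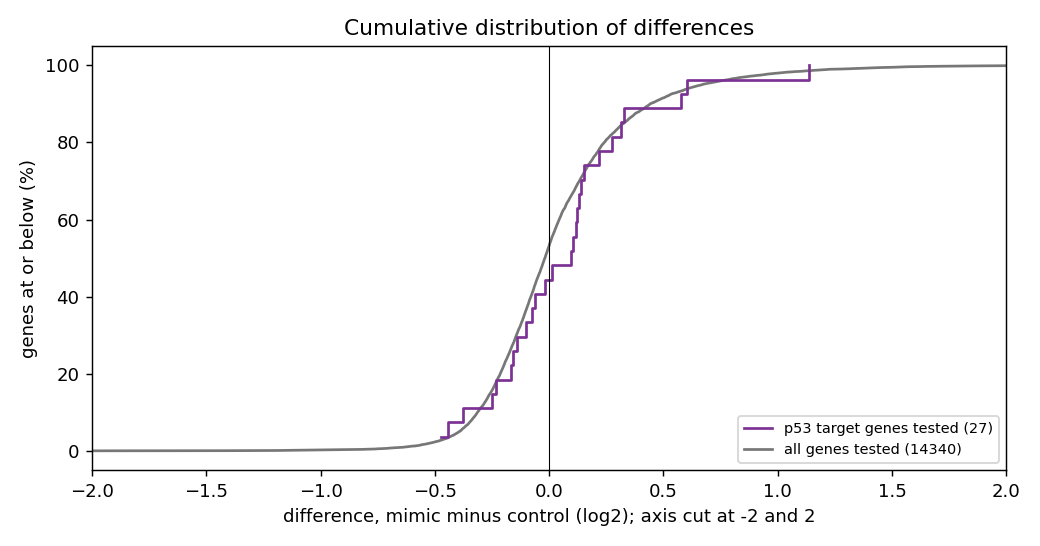
Cumulative distribution of the differences, mimic minus control on the log2 scale (x axis), for the 27 p53 target genes tested and the 14340 genes tested, as the percent of genes at or below each value (y axis). The members' curve runs close to that of all genes, with medians of 0.09 and -0.02, and ends at 1.14 with TP53INP1.

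Levels of the representing probe sets ran between 3.20 and 10.43. RPS27L, GADD45B, GADD45A, PERP and TRIAP1 were bright and CYFIP2 and TNFRSF10C dim in both groups, although signals of different probe sets cannot be ranked as amounts of RNA. The gap between the arrays of a group had a median of 0.05 for mimic and 0.09 for control over the 27 genes, and at most 0.29 and 0.38. All 8 called members differed between groups by more than either gap of their own. The calls weigh the difference against that same spread, so this is no separate support for them.

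**Figure D2:**
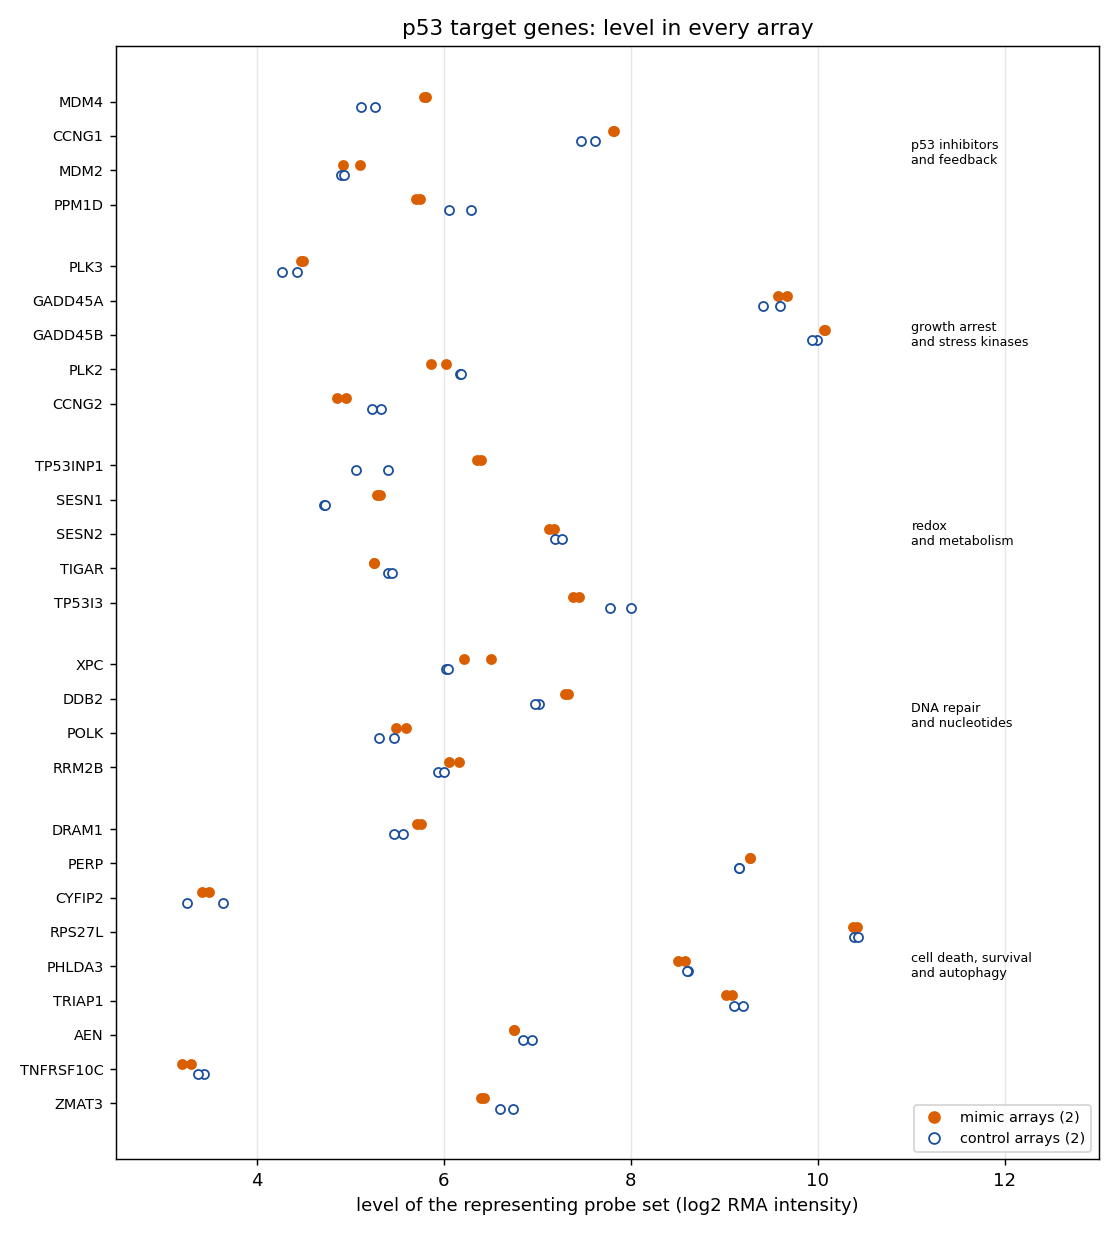
Level of each tested p53 target gene in every array (x axis, log2 RMA intensity of its brightest probe set), with genes grouped by role, filled points for the 2 mimic arrays and open points for the 2 control arrays. TP53INP1, MDM4 and SESN1 show the widest separation with mimic higher, and the points of RPS27L, CYFIP2, GADD45A and MDM2 overlap.

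The inhibitors of p53 went different ways. MDM4, which binds p53 and blocks its transcriptional activity, was at 5.81 and 5.78 in the mimic arrays, against 5.12 and 5.27 in the control arrays. Both mimic arrays lay above both controls, and MDM4 rose 1.52-fold (0.60 ± 0.074 SE, adjusted p = 0.00653). The mean of its 6 probe sets, 1 of which was called lower, gave 0.30, so that its size and direction depend on the probe set. MDM2, the ubiquitin ligase that marks p53 for degradation and a classical p53 target, was at 4.93 and 5.10 in the mimic arrays, against 4.90 and 4.94 in the control arrays. Its groups overlapped, and its difference of 0.09 had a 95% interval of -0.11 to 0.30 (adjusted p = 0.398). Whether MDM4 and MDM2 differed from each other in their response was not tested.

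PPM1D encodes the phosphatase WIP1, which removes activating phosphates from p53 and from its upstream kinases. It was at 5.75 and 5.71 in the mimic arrays, against 6.05 and 6.29 in the control arrays, with no overlap. PPM1D fell 1.36-fold (-0.44 ± 0.095 SE, adjusted p = 0.0269). The call rested on a probe set of the _s_at kind, which can also match related transcripts. Without such probe sets the difference of PPM1D was -0.16 (adjusted p = 0.219), and its call was lost in 6 of 12 alternative settings. Of its 4 tested probe sets, 1 was called and 1 had the opposite sign (0.05).

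The cyclin G genes were called in opposite directions. CCNG1, whose product recruits a phosphatase that activates MDM2, was at 7.82 and 7.81 in the mimic arrays, against 7.62 and 7.47 in the control arrays. CCNG1 rose 1.21-fold (0.27 ± 0.073 SE, adjusted p = 0.0461). This call was the closest to the threshold among the members and was lost in 9 of 12 alternative settings; at probe-set level its adjusted p was 0.0622. Its brightest probe set is of the _s_at kind, and with _s_at and _x_at probes left out the difference of CCNG1 was 0.03 (adjusted p = 0.823). CCNG2, an unconventional cyclin linked to growth arrest that FOXO factors also induce, was at 4.96 and 4.86 in the mimic arrays, against 5.33 and 5.23 in the control arrays. CCNG2 fell 1.30-fold (-0.38 ± 0.072 SE, adjusted p = 0.0203), and all 4 of its tested probe sets had a negative difference, from -0.38 to -0.05. The call was lost in 5 of 12 alternative settings, among them the mean of these probe sets (-0.22, adjusted p = 0.0675).

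No other member of the growth arrest group passed. GADD45A, a stress sensor that binds PCNA and stress kinases, was at 9.67 and 9.58 in the mimic arrays, against 9.41 and 9.60 in the control arrays. Its groups overlapped, and the difference of 0.12 had a 95% interval of -0.10 to 0.34. Its relative GADD45B was at 10.06 and 10.07 in the mimic arrays, against 9.99 and 9.94 in the control arrays, a difference of 0.11 (95% interval -0.04 to 0.25). For the representing probe sets of both GADD45 genes, changes of 2-fold or more in either direction lie outside the interval. The 4 tested GADD45B probe sets ran from -0.19 to 0.21, with 1 of them negative, and none was called.

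The stress-responsive polo-like kinase genes PLK2 and PLK3 differed by -0.23 (95% interval -0.43 to -0.04, adjusted p = 0.0724) and 0.13 (-0.06 to 0.32, adjusted p = 0.229). PLK2 was at 5.87 and 6.03 in the mimic arrays, against 6.18 and 6.19 in the control arrays, and its groups did not overlap. PLK2 passed as lower after quantile normalization (-0.34, adjusted p = 0.0257). Its promoter window holds 1 decamer, shown above, 132 bases before the start.

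The members that act on redox state and metabolism included the widest range. TP53INP1, a stress protein that promotes p53 phosphorylation and autophagy, was at 6.35 and 6.40 in the mimic arrays, against 5.41 and 5.07 in the control arrays. Both mimic arrays lay well above both controls, which differed from each other more than the mimic arrays did. TP53INP1 rose 2.20-fold (1.14 ± 0.12 SE, adjusted p = 0.00493). A second, dimmer TP53INP1 probe set went the other way, at 3.01 and 2.93 in the mimic arrays, against 3.40 and 3.38 in the control arrays. In the test over all probe sets that one was lower (-0.42, adjusted p = 0.0171), so the 2 probe sets do not give 1 direction for the gene. The mean of both gave 0.36.

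The sestrins restrain the growth kinase complex mTORC1 and help to limit peroxides. SESN1 was at 5.29 and 5.32 in the mimic arrays, against 4.72 and 4.73 in the control arrays. Replicates were nearly identical within each group, and SESN1 rose 1.49-fold (0.58 ± 0.056 SE, adjusted p = 0.00383, the lowest among the members). Its other probe set, below the filter on dim signals, was at 3.26 and 3.06 in the mimic arrays, against 2.40 and 2.10 in the control arrays, and was not tested. One of the 3 SESN1 windows holds a decamer, 49 bases before its start.

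SESN2, which ATF4 induces as well as p53, was at 7.12 and 7.18 in the mimic arrays, against 7.19 and 7.26 in the control arrays. Its difference of -0.07 had a 95% interval of -0.24 to 0.09 (adjusted p = 0.406), and the other SESN2 probe set gave 0.06. SESN3, known chiefly as a FOXO target, had both probe sets below the filter, at 0.99 to 1.40 over the 4 arrays, where a low level cannot be told from background. That SESN1 differed in its response from SESN2 was not tested.

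TP53I3, a quinone oxidoreductase that generates reactive oxygen species, was at 7.38 and 7.45 in the mimic arrays, against 8.003 and 7.77 in the control arrays. Both mimic arrays lay below both controls, and TP53I3 fell 1.39-fold (-0.47 ± 0.094 SE, adjusted p = 0.0225), the lowest difference among the members. It had 1 probe set, and its call was lost in 5 of 12 alternative settings. TIGAR, a phosphatase that lowers glycolytic flux, was at 5.26 and 5.26 in the mimic arrays, against 5.40 and 5.45 in the control arrays. Its difference of -0.17 did not pass (adjusted p = 0.0829), and its other probe set gave 0.08.

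All 4 DNA repair and nucleotide genes had a positive difference in their brightest probe set, and 1 passed. Among all genes, 6708 of 14340 had a positive difference and 17.7% were called higher. DDB2, the subunit of the complex that recognises ultraviolet damage in DNA, was at 7.33 and 7.30 in the mimic arrays, against 7.02 and 6.98 in the control arrays. DDB2 rose 1.25-fold (0.32 ± 0.058 SE, adjusted p = 0.0185). Its second probe set, at 6.66 and 6.62 in the mimic arrays, against 6.21 and 6.22 in the control arrays, was also higher in the test over all probe sets (0.43, adjusted p = 0.0127). Among members with several tested probe sets, only DDB2 had all of them called in 1 direction.

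XPC, which starts nucleotide excision repair at distorted DNA, was at 6.22 and 6.51 in the mimic arrays, against 6.03 and 6.04 in the control arrays. The mimic arrays differed from each other by more than for any other tested member, and XPC did not pass (0.33 ± 0.11 SE, adjusted p = 0.0778). RRM2B, the p53-induced small subunit of ribonucleotide reductase, was at 6.05 and 6.17 in the mimic arrays, against 5.93 and 6.01 in the control arrays (0.14, adjusted p = 0.189). Of the 5 tested RRM2B probe sets, 4 had a positive and 1 a negative difference (-0.10). POLK, a DNA polymerase that copies past lesions, had a difference of 0.15 in its brightest probe set (95% interval -0.06 to 0.36). Its 2 dimmer tested probe sets were called higher, with differences of 0.69 and 0.41.

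None of the 9 tested genes of cell death, survival and autophagy passed in limma, with 2 at an unadjusted p under 0.05. Among all 14340 genes, 30.1% were called and 6455 reached that p. Differences of the 9 genes ran from -0.25 to 0.22 with a median of -0.06. ZMAT3, an RNA-binding zinc finger protein and p53 target, came closest: it was at 6.40 and 6.43 in the mimic arrays, against 6.74 and 6.60 in the control arrays (-0.25 ± 0.072 SE, adjusted p = 0.0541). It passed as lower in 4 alternative settings, and its dimmer probe set gave 0.00. DRAM1, a lysosomal protein needed for autophagy downstream of p53, was at 5.76 and 5.72 in the mimic arrays, against 5.57 and 5.47 in the control arrays. Its difference of 0.22 did not pass (adjusted p = 0.0602).

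PHLDA3, which holds back AKT at the membrane, gave -0.06 with all 3 probe sets between -0.10 and -0.06. AEN, a nuclease that promotes apoptosis, gave -0.14 (95% interval -0.31 to 0.02). TRIAP1, which protects cells from apoptosis at low damage, gave -0.10. PERP, a membrane protein of desmosomes and an effector of apoptosis, was at 9.28 in both mimic arrays, against 9.16 in both control arrays (0.12, adjusted p = 0.16). Its dimmest probe set had the opposite sign (-0.23). AEN has 1 decamer in its promoter window, 34 bases before the start used there. That start lies inside the gene, which begins upstream at chr15:88604683.

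RPS27L, a ribosomal protein paralog, was the member closest to no difference after CYFIP2, at 10.41 and 10.37 in the mimic arrays, against 10.39 and 10.43 in the control arrays. Its interval ran from -0.17 to 0.13, and whether its relative RPS27 shares the signal was not tested. The other RPS27L probe set lay below the filter, at 1.66 to 1.78 over the 4 arrays. The decamer in the RPS27L window lies 59 bases before the start. CYFIP2, of the actin-regulating WAVE complex, was at 3.42 and 3.50 in the mimic arrays, against 3.25 and 3.64 in the control arrays, which spanned the mimic values. TNFRSF10C, a decoy receptor for the death ligand TRAIL, was at 3.30 and 3.20 in the mimic arrays, against 3.44 and 3.38 in the control arrays (-0.16, adjusted p = 0.13). A further 2 probe sets that the annotation shares between TNFRSF10C and another gene were not used.

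EDA2R, a receptor for ectodysplasin A2, and SPATA18, which acts in the quality control of mitochondria, had all their probe sets below the filter. EDA2R probe sets were at 1.16 to 2.96 and SPATA18 probe sets at 1.23 to 2.99 over the 4 arrays. Filtering was on the mean over all arrays, at a level of 2.83. The brightest SPATA18 probe set was at 2.74 and 2.44 in the mimic arrays, against 2.89 and 2.99 in the control arrays, and that of EDA2R at 2.87 and 2.63 in the mimic arrays, against 2.96 and 2.83 in the control arrays. No test was made of these genes in the main setting.

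**Figure D3:**
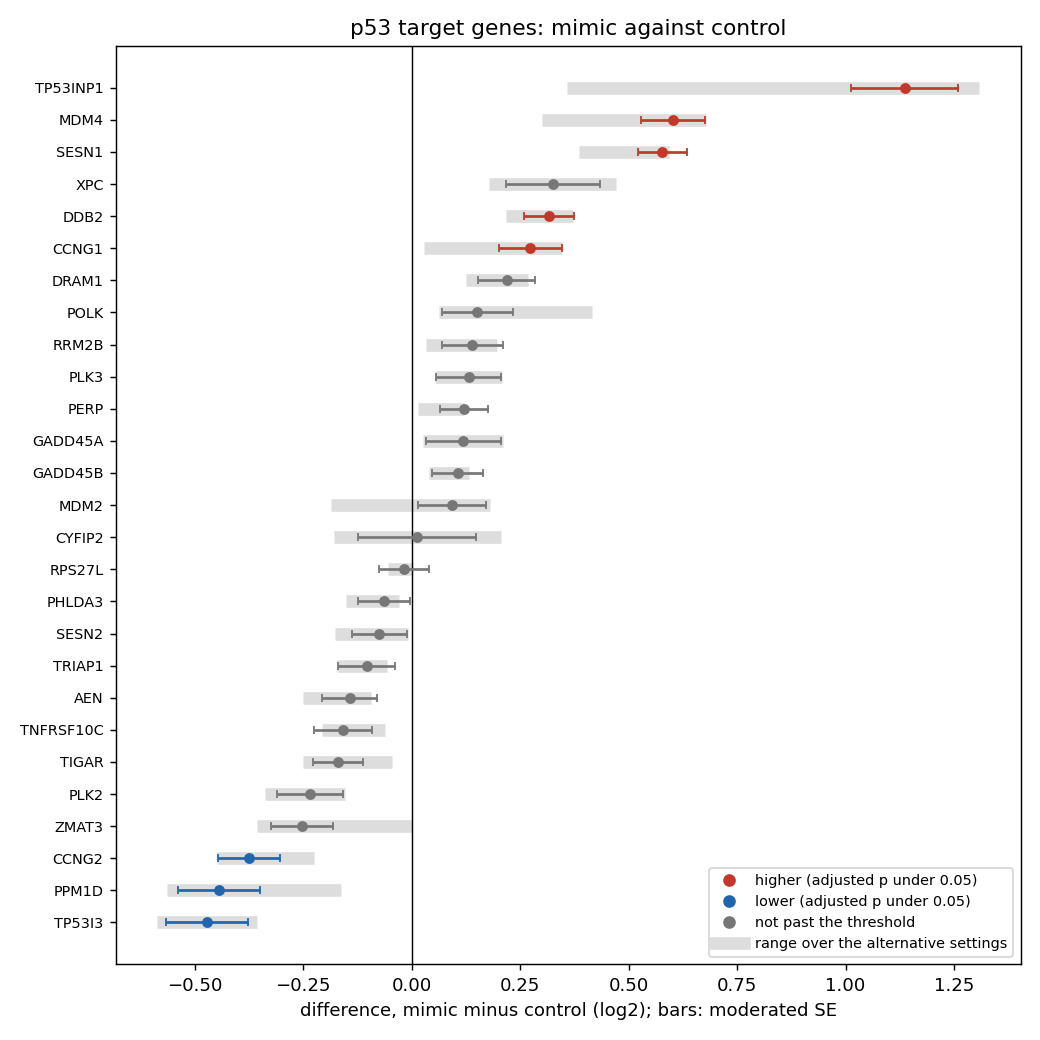
Difference of each tested p53 target gene, mimic minus control (x axis, log2), with the moderated SE as bars, colour for the call at an adjusted p under 0.05, and a grey band for the range over the alternative settings. The 5 genes called higher and the 3 called lower keep their sign over the whole band, and the bands of MDM2, CYFIP2 and RPS27L cross 0.

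Tested probe sets of 1 gene did not always share a sign. Of 69 tested probe sets, 9 were called higher and 5 lower, against 14.5% and 7.95% of all probe sets. The called ones belonged to 8 genes, which were the members called at gene level with POLK in place of CCNG1. Of 20 genes with several tested probe sets, 10 had differences of both signs. Some of these were small and not called, such as those of SESN2 (-0.07 and 0.06). The share of all genes with both signs is not given here. Only MDM4 and TP53INP1 had calls both ways. For MDM4, 3 of 6 probe sets were higher, with differences of 0.60, 0.68 and 0.82, and 1 was lower, at 4.0 and 3.99 in the mimic arrays, against 4.41 and 4.57 in the control arrays (-0.49, adjusted p = 0.0164). MDM2 had 11 probe sets, the most of any member, of which 5 were tested, with differences from -0.18 to 0.28, and none passed in limma (lowest adjusted p = 0.116). The transcript region that each probe set covers was not used here.

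**Figure D4:**
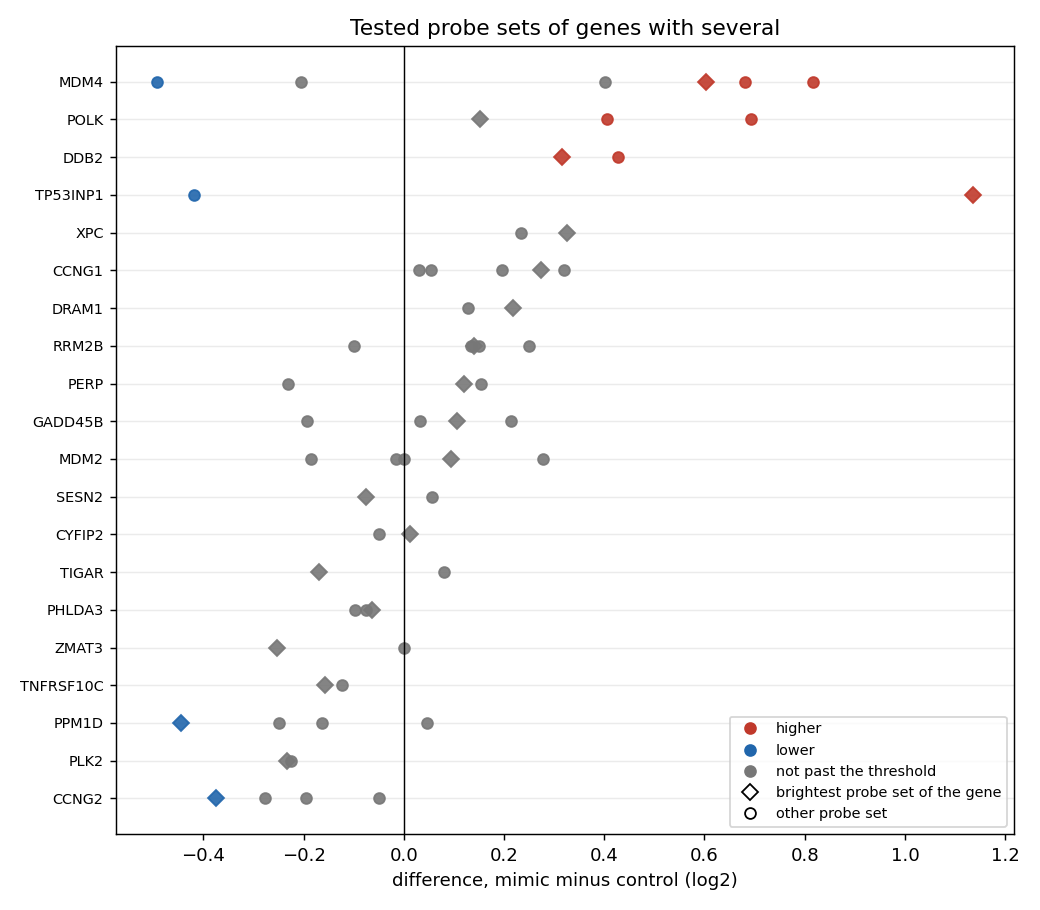
Differences of all tested probe sets (x axis, log2, mimic minus control) of the 20 p53 target genes with several, with diamonds for the brightest probe set of a gene, circles for the others and colour for the call in the test over all probe sets. MDM4 and TP53INP1 have points called on both sides of 0, whereas both DDB2 points and all CCNG2 points lie on 1 side.

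Beside these genes, 37 of 40 other p53 targets were tested, of which 9 rose and 10 fell, with a median difference of 0.01. The share called either way was 51.4%, against 30.1% of all genes and 29.6% of the 27 members tested. CDKN1A fell, at 9.90 and 9.91 in the mimic arrays, against 11.04 and 11.04 in the control arrays (-1.13 ± 0.056 SE, adjusted p = 0.00112). TRIM22, an interferon-induced gene as well, had -2.34 (± 0.41 SE, adjusted p = 0.0166), at 4.48 and 4.09 in the mimic arrays. Its control arrays lay far apart, at 7.23 and 6.01. The sulfatase gene SULF2 had 1.29. Of 24 p53 relatives and regulators, 22 were tested, 8 rose and 3 fell (50% called), with a median of 0.10. The largest calls were those of the checkpoint kinase gene CHEK1 (0.82), the p53 relative TP73 (0.73) and the damage kinase gene ATR (0.57).

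Cell cycle genes that p53 represses through p21 and the DREAM complex were mostly higher: 16 of 19 tested rose and 3 did not pass, with a median of 1.13. CCNA2 (3.11), CENPF (1.79) and CCNB1 (1.74) led the list. Among all genes, 17.7% were called higher. Checkpoint kinase and repair genes are known to follow the cell cycle, and the part of cell cycle phase in the differences of the p53 targets was not tested.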

How the data were processed

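The deposited values are 1 linear intensity per probe set and array, for 49293 probe sets on 4 arrays. The authors made them with RMA, per the submitters' processing notes, a method that subtracts background, equalises quantiles between arrays and combines the probes of a set; neither software nor version is given in the sources used here. RMA compresses differences of dim probe sets, and no detection calls were used.

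Log2 was taken. Probe sets were named from the platform annotation, and 44961 of 44988 with 1 gene were updated through the RefSeq table of GRCh38.p14. Probe sets of several genes (1832) or none (2473) and the lowest 30% by mean over all arrays (below 2.83) were left out. limma 3.58.1 (lmFit, eBayes, R 4.3.3) compared 2 mimic with 2 control arrays on 4.98 total degrees of freedom, at gene and at probe-set level, without a replicate block. The number of arrays limits the precision. Alternatives were scaling, filters, log offset, variance trend, block, probe set choice and each left-out array.

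Members, role groups and lists were chosen with earlier results of these data known. Named genes outside the members are CDKN1A and, per list, up to 3 with the largest difference past the threshold. Further genes fixed for naming, and some members, are not reported here.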

Additional observations from a re-analysis of the deposited data

How the results depend on the processing

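Under the 7 settings with all arrays and 1 probe set per gene, 4 to 7 members were called higher. Those called lower were 7 after quantile normalization, 5 with the lowest 50% of probe sets left out, 5 with log2(value + 16) and 1 with a replicate block (all genes 2619, 1812, 1977 and 979, against 1766 as reported); probe sets called lower were 9 after quantile normalization and 2 with the replicate block. These counts moved in the same direction over all genes; the cause was not tested. Under the block the calls of CCNG1, PPM1D and TP53I3 were lost. The deviations of same-numbered arrays from their group means had r = -0.0089. With 2 arrays per group, crossed pairs give that value with the other sign. It therefore cannot show whether same-numbered arrays shared a day or culture. Leaving out 1 array gave 0 to 3 members called higher, 0 called lower in each case, and 0 probe sets called either way in limma, with 8 to 13 members and 15 to 28 member probe sets at an unadjusted p under 0.05. Over all genes, 0 were called without either mimic array; the lone array is then assumed to vary like the other group. Signs turned for MDM2 without _s_at and _x_at probe sets (-0.18), for CYFIP2 without mimic replicate 2 (-0.02), without control replicate 1 (-0.18) and with the mean of probe sets (-0.018), and for RPS27L without mimic replicate 2 (0.0025) or control replicate 2 (0.0022), in ranges over the left-out arrays of -0.18 to 0.21 for CYFIP2 and -0.038 to 0.0025 for RPS27L; none of these 3 genes was called in any setting. No called member changed sign. The mean of all probe sets has no value at probe-set level. Of the other results of single members, 14 passed only in an alternative and 37 lost their call in one, 28 of them without 1 array.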

Other observations

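Several p53 targets are also driven by other factors, and the other targets of those factors went different ways. Of 16 ATF4 target genes, 15 were tested, 9 rose and 1 fell, with a median difference of 0.26. The share called was 66.7%, against 30.1% of all genes. SESN2, an ATF4 target among the p53 targets, was at -0.07, and the part of ATF4 in that value was not tested. The serine synthesis genes PSAT1 (1.05) and PHGDH (0.89) and the transcription factor gene CEBPG (0.99) had the largest differences. Of 16 FOXO target genes, 14 were tested, 2 rose and 5 fell (50% called), with a median of -0.16. TXNIP, which restrains glucose uptake, had -0.90, the insulin receptor gene INSR 0.87 and the ubiquitin ligase gene FBXO32 -0.59. CCNG2 fell and SESN1 rose, both of which FOXO factors can induce. The part of FOXO factors in these differences was not tested.

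Immediate early genes are induced by growth factors and stress within minutes, as GADD45B and PLK2 also can be. All 20 listed were tested, 3 rose and 2 fell (25% called, against 30.1% of all genes), with a median of -0.03. CCN2 (1.03) and EGR1 (0.85) were higher and EGR3 (-0.40) was lower. No test was made of whether these lists differ from the p53 targets.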
